A study of Mus musculus with 15 samples.

Results

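Axon guidance in the aorta-gonad-mesonephros (AGM) region was described here through 64 genes for guidance cues and their receptors, chosen by name from the 28876 genes of the table. They are 7 class 3 semaphorins, 13 other semaphorins, 9 plexins, 3 Slits, 4 Robos, 4 netrins, 4 netrin receptors, 9 A-type and 4 B-type Eph receptors, and 5 A-type and 2 B-type ephrins. The name pattern matched 67 genes, of which Efnb2, Ephb4 and Unc5b were left out by the rule. All 64 reached the minimum level for testing, 0.5 RPM (a gene's reads, scaled to a common total for each library) in at least 1 library. Plxnb3 reached it in E10 AoD alone, Ntn5 in E9 AoD alone and Robo3 in E9 AoD replicate 3 alone. Epha6 reached it only in E10 AoV and E10 UGR. Calls that place these genes high in those groups therefore rest on the values that let them pass.

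The libraries are 15 bulk RNA sequencing profiles of tissue from C57BL/6 mouse embryos, in 5 groups of 3. The labels list no mutation or treatment for any of them. The groups are the dorsal (E9 AoD) and ventral (E9 AoV) parts of the dorsal aorta with its surroundings at E9.5, the same parts at E10.5 (E10 AoD and E10 AoV), and the urogenital ridges at E10.5 (E10 UGR), which hold the mesonephros and the later gonad. The AGM region is where hematopoietic stem cells first arise. Each library came from tissue pooled over many embryos, so it holds every cell type of the dissected piece. The 3 replicates of a group are such pools, and p-values measure the spread between them. Depth, inferred from the RPM of a single read, was between 33.7 M and 48.6 M reads per library.

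Guidance cues steer growing axons and migrating cells by attraction or repulsion. Secreted netrins attract through Dcc and repel through Unc5 receptors, Slits repel through Robos, semaphorins act mainly through plexins, with neuropilins as co-receptors for most of class 3, and ephrins and Eph receptors signal in both directions between touching cells. In the embryonic trunk, the floor plate of the neural tube is a classical source of Netrin-1 and Slits for commissural axons, and the same families guide neural crest cells, blood vessels and the nephric duct.

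Differences were tested with limma on log2(RPM + 0.1) across 18553 genes, and a gene was called when its adjusted p was below 0.05 and its difference at least 2-fold. Of the 64 members, 36 were called in at least 1 of 7 comparisons and 28 in none. Between the stages, 10 members (15.6%) were higher and 3 (4.69%) lower in E10 AoV than in E9 AoV, against 6.04% and 4.99% of all tested genes. In E10 AoD against E9 AoD, 11 (17.2%) were higher and 4 (6.25%) lower, against 8.6% and 4% of tested genes. Between the sides of the aorta, 8 (12.5%) were higher and 9 (14.1%) lower in E9 AoV than in E9 AoD, against 8.32% and 3.47%, a split that became 3 higher and 9 lower after quantile normalization, which moved the median of all genes in that comparison by -0.12 on the log2 scale. At E10.5, 9 (14.1%) were higher and 10 (15.6%) lower in AoV than in AoD, against 5.81% and 4.29%. Against E10 UGR, E10 AoV had 6 higher (9.38%) and 4 lower (6.25%) members, against 3.84% and 3.73% of tested genes, and E10 AoD had 13 higher (20.3%) and 10 lower (15.6%), against 4.76% and 6.56%. The interaction, which is the change with stage in AoV less the change with stage in AoD, was positive for 7 members (10.9%) and negative for 6 (9.38%), against 4.12% and 6.89%. The share of members called was thus above that of all tested genes in each direction of every comparison except the lower calls of E10 AoV against E9 AoV, with 4.69% against 4.99%. The median log2 difference over the members was 0.12, 0.23, 0.19, -0.10, -0.09, -0.06 and -0.09 in the 7 comparisons in the order given here, and lay between -0.055 and 0.018 over all tested genes. The median size of the log2 difference between E10 AoV and E10 AoD was 0.54 over the members and 0.17 over all tested genes. In each called pairwise comparison of a member the RPM ranges of the 2 groups did not overlap. This was not counted over all called genes. A 2-fold call on 3 libraries a group leaves little room for overlap, so it is no separate support. Comparisons that share a group are not independent of each other, so their counts are given side by side only. Since tissue was sequenced in bulk, fewer cells of a type and less RNA per cell cannot be told apart in any of these values.

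**Figure D1:**
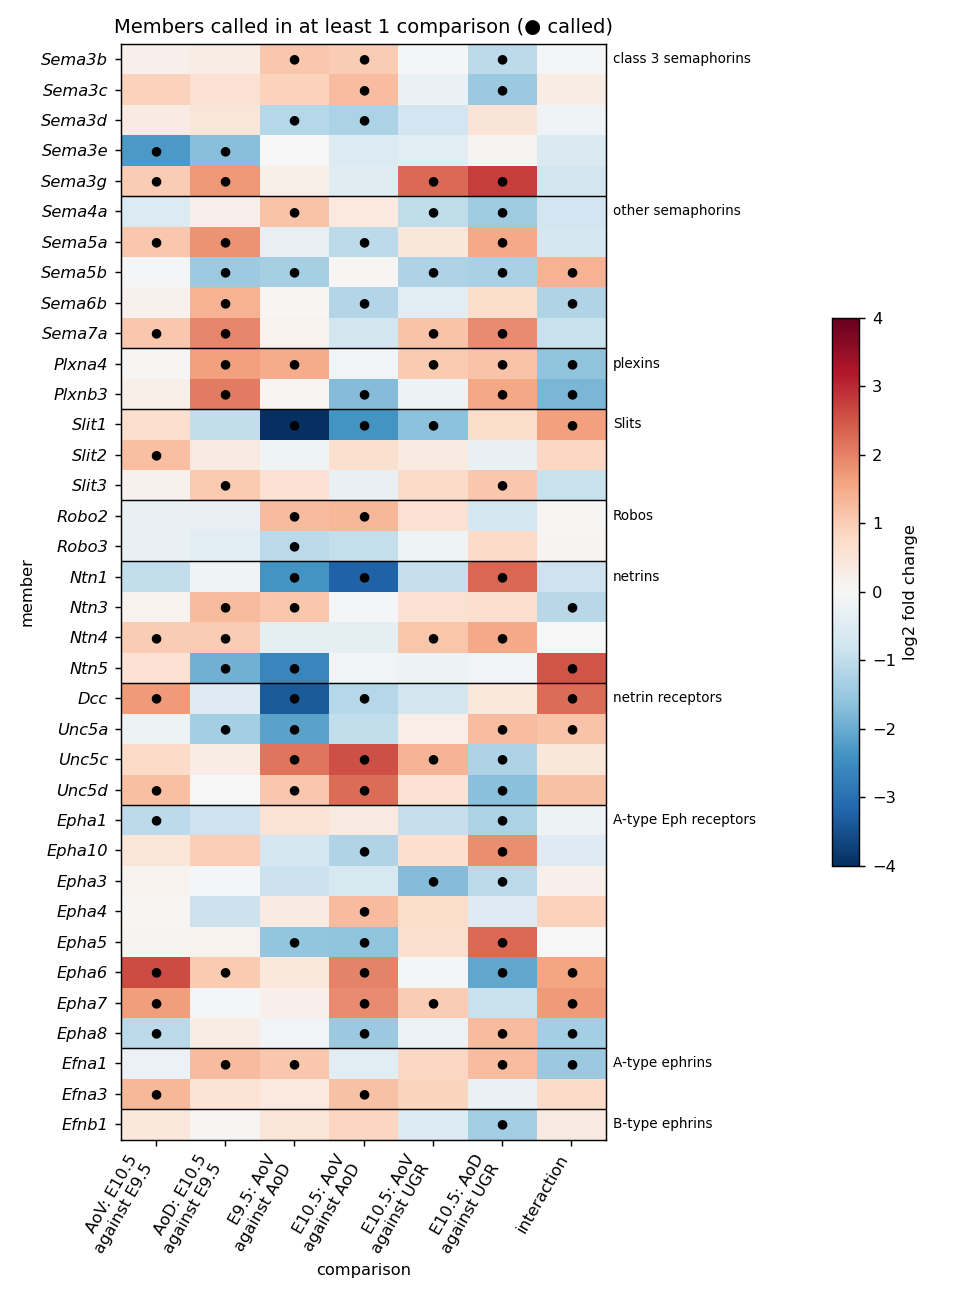
Log2 fold change of the 36 members called at least once (rows, grouped by role) in the 7 comparisons (columns), with red for higher and blue for lower in the group named first and a dot for each call. Slit1 at E9.5 has the deepest blue, at -4.01, and the Unc5 receptors show both colors within the columns that compare AoV with AoD.

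Cell type markers also differed between the pieces, and their part in the results below was not tested. Summed RPM of 7 neural tube progenitor markers was 214 to 398 in E9 AoD, 33.0 to 45.4 in E9 AoV, 34.8 to 54.7 in E10 AoD, 12.3 to 13.9 in E10 AoV and 25.1 to 27.1 in E10 UGR, and 7 of 7 were lower in E9 AoV than in E9 AoD and 6 of 7 lower in E10 AoV than in E10 AoD. For 6 floor plate and notochord markers the sums were 129 to 149 in E9 AoD, 95.4 to 103 in E9 AoV, 267 to 314 in E10 AoD, 21.8 to 27.3 in E10 AoV, where Noto was listed at 0, and 31.4 to 41.5 in E10 UGR. The 7 neuron markers summed to 154 to 211, 81.6 to 90.6, 263 to 318, 126 to 136 and 54.7 to 62.1 RPM in the same order of groups, and the 7 neural crest and sympathoadrenal markers to 48.7 to 59.3, 11.6 to 18.6, 297 to 352, 43.2 to 63.3 and 64.1 to 69.3. Sclerotome (5 markers) gave 222 to 236, 57.4 to 68.7, 529 to 730, 164 to 187 and 126 to 138 RPM, and myotome (5 markers) 381 to 386, 45.7 to 65.7, 238 to 259, 23.0 to 28.8 and 95.4 to 163. Each of these 6 lists summed lower in the ventral than in the dorsal piece at both stages. The 7 endothelial markers summed to 301 to 406 RPM in E9 AoD and to between 477 and 700 in the other groups. The 6 mesonephros and nephric duct markers reached 255 to 276 RPM in E10 UGR against 23.1 to 68.4 elsewhere, the 5 coelomic epithelium and gonad markers 578 to 742 in E10 UGR and E10 AoV against 35.9 to 189 elsewhere, and the 6 gut and liver endoderm markers 449 to 655 in E9 AoV against 9.54 to 40.6 elsewhere. Of 5 hematopoietic markers, 4 were found and summed to 8.90 to 43.7 RPM, and 5 erythroid markers varied from 2306 to 10824 RPM with wide overlap of the groups.

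Netrins and their receptors often differed between the sides of the aorta. At E9.5, 3 of 4 netrins and 4 of 4 receptors were called, and at E10.5, 1 of 4 and 3 of 4. Of all 18553 tested genes, 2187 were called at E9.5 and 1874 at E10.5. With 1 RPM added in place of 0.1 RPM, the calls of Ntn5 and Unc5d at E9.5 and of Dcc at E10.5 were lost. Ntn1, which encodes Netrin-1, is on chr11:68022866-68214325 of build NCBIM37. Ntn1 was at 228, 242 and 251 RPM in E9 AoD and at 44.3, 44.1 and 47.7 RPM in E9 AoV. Ntn1 at E10.5 was at 228, 235 and 196 in E10 AoD, 25.9, 21.5 and 22.1 in E10 AoV, and 47, 59.7 and 30.5 in E10 UGR. All 6 dorsal libraries were above all other libraries. Ntn1 was 5.3-fold lower in E9 AoV than in E9 AoD (log2 difference -2.40, SE 0.17, adjusted p = 3.07e-08) and 9.48-fold lower in E10 AoV than in E10 AoD (log2 difference -3.24, SE 0.17, adjusted p = 1.81e-09), while E10 AoD was above E10 UGR (log2 difference 2.31, SE 0.17, adjusted p = 4.1e-08). Its difference between E10 AoV and E9 AoV was just under 2-fold (log2 difference -0.97, SE 0.17, adjusted p = 0.000244) and became a call without E10 AoV replicate 1 (-1.05). The floor plate and notochord markers, given above, had their lowest sums in E10 AoV. Of these markers, 2 of 6 were called lower in AoV than in AoD at E9.5 and 5 of 6 at E10.5. Their part in the Ntn1 values was not tested.

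The other netrins followed other patterns. Ntn4, a secreted netrin of basement membranes, rose with stage on both sides. Ntn4 was at 3.22, 3.25 and 3.53 RPM in E9 AoD and at 2.53, 2.23 and 2.9 RPM in E9 AoV. Ntn4 at E10.5 was at 7.35, 6.1 and 7.36 in E10 AoD, 5.24, 5.42 and 5.05 in E10 AoV, and 2.28, 2.55 and 2.28 in E10 UGR. All 6 aorta libraries of E10.5 were above all other libraries. On the log2 scale the rise was 1.02 in AoV and 1.03 in AoD, and the difference from E10 UGR 1.11 in AoV and 1.51 in AoD. The rise in AoV was not called without E9 AoV replicate 2 (0.93) or E10 AoV replicate 2 (0.99), and that in AoD without E10 AoD replicate 1 (0.99) or 3 (0.99). Ntn3 was lowest in E9 AoD, where it ranged from 8.68 to 11.5 RPM against 15.3 to 29 RPM in the other groups, and was called higher in E10 AoD than in E9 AoD (1.26) and in E9 AoV than in E9 AoD (1.07, or 0.94 and not called without E9 AoD replicate 3). Ntn5 was scarce. Ntn5 was at 1.22, 0.789 and 1.68 RPM in E9 AoD and at 0.14, 0.204 and 0.0273 RPM in E9 AoV. Ntn5 at E10.5 was at 0.134, 0.386 and 0.236 in E10 AoD, 0.178, 0.229 and 0.242 in E10 AoV, and 0.317, 0.363 and 0.15 in E10 UGR. E9 AoD stood above every other group, so that Ntn5 was lower in E9 AoV (-2.60) and in E10 AoD (-1.92), but 25.9% of its exon length is shared with Sec1 on the opposite strand, and without strand the reads of the pair cannot be told apart. With a pseudocount of 1 RPM these 2 differences shrank to -0.97 and -0.82 and were not called.

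Among the receptors at E9.5, Dcc and Unc5a were higher dorsally and Unc5c and Unc5d ventrally. Dcc was at 2.58, 2.9 and 6.93 RPM in E9 AoD and at 0.251, 0.371 and 0.214 RPM in E9 AoV. Dcc at E10.5 was at 2, 4.24 and 2.04 in E10 AoD, 1.04, 1.48 and 0.908 in E10 AoV, and 2.01, 2.04 and 1.75 in E10 UGR. Dcc, the attractive netrin receptor, was lowest in E9 AoV and 14.8-fold lower there than in E9 AoD (log2 difference -3.36, SE 0.34, adjusted p = 1.36e-06), or 9.83-fold without E9 AoD replicate 3, the highest library. It rose in the ventral aorta (1.71) while its dorsal difference between stages (-0.51, adjusted p = 0.214) did not pass the test, and at E10.5 the ventral side was still lower (-1.14). That last call did not hold without E10 AoD replicate 2 (-0.80, adjusted p = 0.0814), E10 AoV replicate 1 (-1.09) or E10 AoV replicate 3 (-1.004). With 1 RPM added in place of 0.1 RPM, the ventral rise was 0.74 and the E10.5 side difference -0.77, and neither was called. E9 AoD replicate 3 and E10 AoD replicate 2 were the highest Dcc libraries of their groups, and the neural tube progenitor sum was the highest of its group in the first (398 RPM) but not in the second (34.9 RPM, against 54.7 in replicate 1 and 34.8 in replicate 3). The neuron marker sum was the highest of its group in both. It was 154, 196 and 211 RPM in E9 AoD replicates 1 to 3 and 312, 318 and 263 RPM in those of E10 AoD. The part of neural cells in the Dcc values was not tested.

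Unc5a, a repulsive netrin receptor of neurons, is on chr13:55050772-55107379 (NCBIM37). Unc5a was at 12.4, 10.6 and 15.6 RPM in E9 AoD and at 2.8, 2.94 and 2.64 RPM in E9 AoV. Unc5a at E10.5 was at 5.19, 4.69 and 4.71 in E10 AoD, 2.31, 2.69 and 2.19 in E10 AoV, and 1.8, 2.02 and 2.17 in E10 UGR. Only E9 AoD exceeded 10 RPM, with E10 AoD next and no overlap with the rest. Unc5a was 4.61-fold lower in E9 AoV than in E9 AoD (log2 difference -2.15, SE 0.13, adjusted p = 8.24e-09), fell with stage in AoD (-1.37) and was higher in E10 AoD than in E10 UGR (1.25). The difference between the E10.5 sides was just under 2-fold (-0.99) and was called after median-of-ratios scaling (-1.02), after quantile normalization (-1.07), and without E10 AoD replicate 2 or 3 or E10 AoV replicate 2 (-1.02, -1.02 and -1.08).

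Unc5c, another repulsive netrin receptor, is on chr3:141128528-141497888 (NCBIM37) and had the opposite polarity. Unc5c was at 25.9, 32.9 and 24.1 RPM in E9 AoD and at 101, 147 and 119 RPM in E9 AoV. Unc5c at E10.5 was at 29.3, 44.4 and 30.1 in E10 AoD, 207, 236 and 175 in E10 AoV, and 80.2, 85.1 and 75.9 in E10 UGR. The lowest ventral library, at 101 RPM, was above the highest dorsal library, at 44.4 RPM. Unc5c was higher in AoV than in AoD by a log2 difference of 2.14 (SE 0.17, adjusted p = 1.04e-07) at E9.5 and of 2.59 (SE 0.17, adjusted p = 1.73e-08) at E10.5. E10 UGR lay in between, with AoV against UGR at 1.35 and AoD against UGR at -1.24. Unc5d was low but had the same order of groups at E10.5. Unc5d was at 0.32, 0.537 and 0.534 RPM in E9 AoD and at 1.16, 1.28 and 0.808 RPM in E9 AoV. Unc5d at E10.5 was at 0.205, 0.803 and 0.545 in E10 AoD, 2.59, 2.61 and 2.51 in E10 AoV, and 1.72, 1.56 and 1.8 in E10 UGR. The E10 AoV libraries were the 3 highest, above E9 AoV by 1.197 and above E10 AoD by 2.25, and E10 AoD against E10 UGR was at -1.67. Its E9.5 difference (1.07) was not called without E9 AoD replicate 1 (0.87) or E9 AoV replicate 2 (0.95), and with a pseudocount of 1 RPM the differences of Unc5d were 0.78 between the ventral stages, 0.51 between the E9.5 sides and -0.85 between E10 AoD and E10 UGR.

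**Figure D2:**
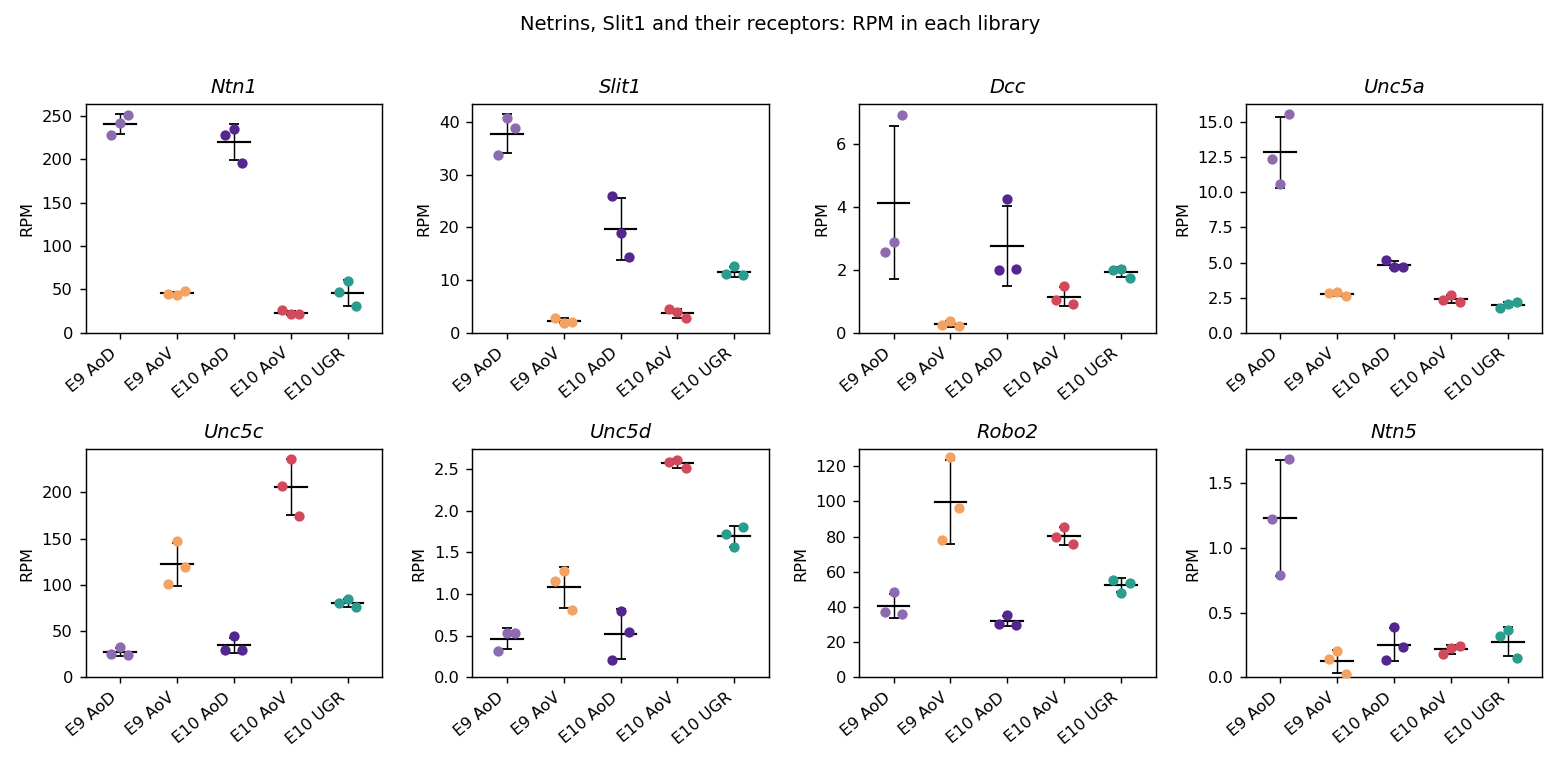
RPM of 8 netrin, Slit and receptor genes in each library (points) of the 5 groups, with group means (lines) and SD (bars, n = 3), each panel on its own linear axis from 0. Slit1, Unc5a and Ntn5 are highest in E9 AoD and Ntn1 in both dorsal groups, whereas Unc5c lies between 175 and 236 RPM in E10 AoV.

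The upstream sequences of Unc5a and Unc5c are shown because these paralogs had opposite polarity in the same tissue. They are the 250 bases before the start of transcription in RefSeq (build GRCm38.p6, not the NCBIM37 build of the expression table), 5′ to 3′ on the gene's strand, with GC boxes (GGGCGG or its reverse complement) in capitals. Unc5a is at chr13:54949161-54949410 on the plus strand and Unc5c at chr3:141465314-141465563 on the plus strand.
Unc5a: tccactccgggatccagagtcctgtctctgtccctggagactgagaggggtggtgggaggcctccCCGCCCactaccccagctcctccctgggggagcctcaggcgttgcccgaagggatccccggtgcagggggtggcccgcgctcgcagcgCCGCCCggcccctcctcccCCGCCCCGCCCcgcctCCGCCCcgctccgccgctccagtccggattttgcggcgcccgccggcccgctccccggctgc
Unc5c: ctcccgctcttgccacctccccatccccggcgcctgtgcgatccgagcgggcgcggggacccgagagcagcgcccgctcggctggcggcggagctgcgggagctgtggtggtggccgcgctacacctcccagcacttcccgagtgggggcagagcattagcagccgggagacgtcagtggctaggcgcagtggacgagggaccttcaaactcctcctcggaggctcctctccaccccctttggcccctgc
The Unc5a window holds 5 GC boxes, 2 of which overlap, and the Unc5c window none, although both are rich in G and C (76.8% and 71.2%). Of the 64 members, 54 had a start in the RefSeq table, with 70 windows. Ntn1, Slit1, Dcc and Unc5d are among those with no entry. A GC box was in 68.6% of the 70 member windows and in 32.7% of all 32851 windows of that length. For the E-box CAGCTG the shares were 17.1% and 13.0%, for the SOX motif AACAAT 4.29% and 9.42%, for the TATA box TATAAA 1.43% and 12.4%, for the forkhead motif TGTTTAC 0% and 3.17%, and for the GLI motif GACCACCCA 0% and 0.225%, all searched on both strands. Overlapping matches were each counted, and the matches are descriptions of letters, not of binding.

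Slits and Robos, a repulsive system of the floor plate, had 1 member each that was called between the sides at both stages, Slit1 and Robo2. Slit1 was at 33.8, 40.8 and 38.9 RPM in E9 AoD and at 2.83, 1.95 and 2.04 RPM in E9 AoV. Slit1 at E10.5 was at 26, 19 and 14.3 in E10 AoD, 4.44, 3.91 and 2.72 in E10 AoV, and 11.1, 12.7 and 11 in E10 UGR. Slit1, on chr19:41674747-41818155 (NCBIM37), had its 3 highest libraries in E9 AoD, and its ventral libraries were lowest at both stages. It was 16.6-fold lower in E9 AoV than in E9 AoD (log2 difference -4.01, SE 0.20, adjusted p = 1.9e-09), the largest difference of any member in any of the 7 comparisons on the log2 scale. At E10.5 the ventral side was 5.36-fold lower than AoD (log2 difference -2.38, SE 0.20, adjusted p = 3.18e-07) and 3.14-fold lower than UGR (-1.65). Between the stages Slit1 was -0.97 in AoD and 0.67 in AoV, both short of 2-fold. The first became a call without E9 AoD replicate 1 (-1.05) or E10 AoD replicate 1 (-1.19) and after quantile normalization (-1.004).

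Slit2 and Slit3 were called between the stages on different sides, and Slit3 was also called between E10 AoD and E10 UGR. Slit2 was at 50.5, 69.1 and 54.4 RPM in E9 AoD and at 45.9, 59.7 and 48.3 RPM in E9 AoV. Slit2 at E10.5 was at 67.5, 87.7 and 68.2 in E10 AoD, 117, 120 and 112 in E10 AoV, and 89.7, 96.4 and 84.4 in E10 UGR. Slit2 was highest in E10 AoV, with no overlap with another group, and rose there by 1.19 (SE 0.12, adjusted p = 1.92e-06) on the log2 scale. Slit3 was at 37, 42.3 and 33.2 RPM in E9 AoD and at 55, 59.3 and 52.5 RPM in E9 AoV. Slit3 at E10.5 was at 77.5, 82.1 and 73.1 in E10 AoD, 65.4, 68.5 and 55 in E10 AoV, and 37.1, 38.4 and 35 in E10 UGR. Slit3 was highest in E10 AoD, rose there by 1.05 (SE 0.091, adjusted p = 1.91e-07) on the log2 scale, and was higher in E10 AoD than in E10 UGR (1.07). The rise of Slit3 was not called without E9 AoD replicate 3 (0.97).

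Robo2, an axonal and nephrogenic Slit receptor, was higher on the ventral side at both stages. Robo2 was at 37.4, 48.3 and 36.2 RPM in E9 AoD and at 78, 125 and 96.1 RPM in E9 AoV. Robo2 at E10.5 was at 30.5, 35.4 and 30 in E10 AoD, 79.9, 85.6 and 75.5 in E10 AoV, and 55.6, 48.1 and 53.4 in E10 UGR. The highest dorsal library, at 48.3 RPM, was below the lowest ventral library, at 75.5 RPM, and at E10.5 the UGR libraries lay between the sides. The log2 difference of AoV from AoD was 1.28 (SE 0.14, adjusted p = 3.41e-06) at E9.5 and 1.33 (SE 0.14, adjusted p = 2.82e-06) at E10.5. Robo1 had adjusted p values of 0.00155 at E9.5 and 0.00116 at E10.5 in the same direction, at 0.64 and 0.69, short of 2-fold. Robo3, the divergent Robo of commissural neurons, did not exceed 0.684 RPM in any library, and its call at E9.5 (-1.09) did not hold without E9 AoD replicate 2 (-1.08) or E9 AoV replicate 2 (-0.82) or with a pseudocount of 1 RPM (-0.32). Robo4, the endothelial Robo, lay between 7.53 and 16.2 RPM and was not called in any comparison.

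**Figure D3:**
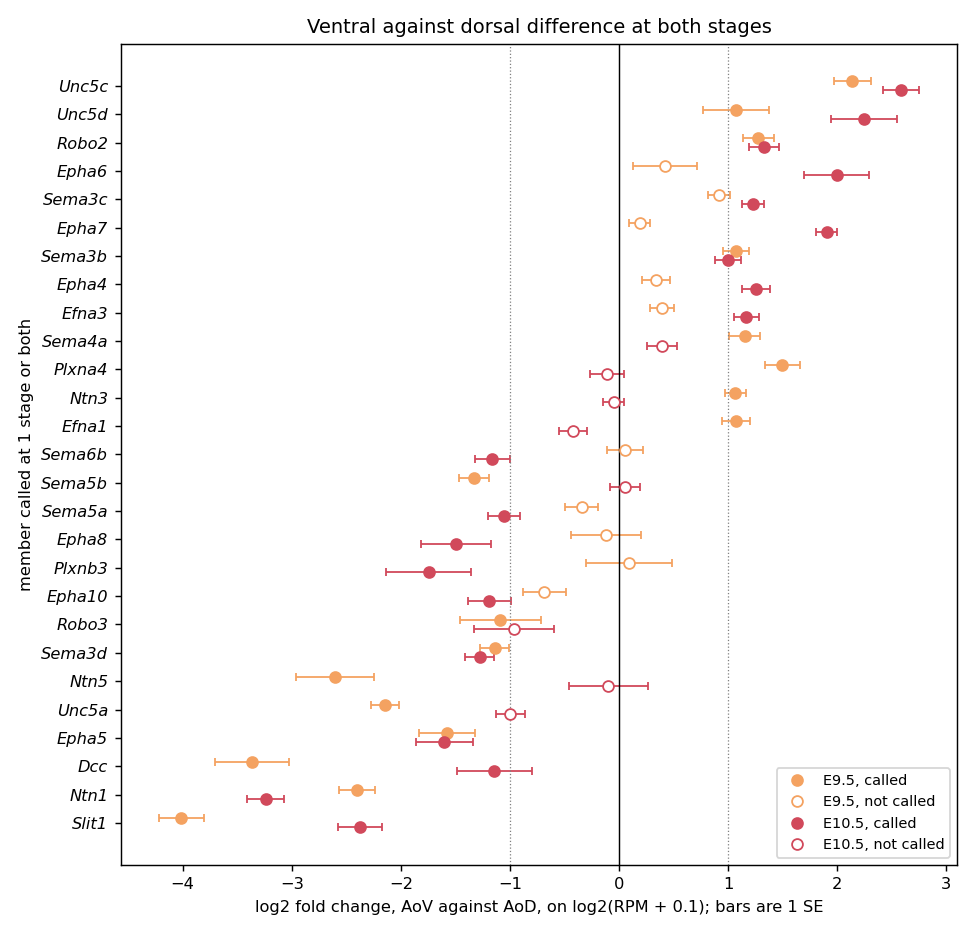
Log2 fold change of AoV against AoD with its SE at E9.5 and at E10.5 for the members called at either stage, filled where called, with dotted lines at 2-fold. Unc5c, Unc5d, Robo2 and Sema3b lie past 1 at both stages and Slit1, Ntn1, Dcc, Epha5 and Sema3d past -1 at both, while Epha7 is called at E10.5 alone, at 1.90.

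Between E9.5 and E10.5 the ventral calls shared 4 members that were higher in AoV at both stages, Robo2, Sema3b, Unc5c and Unc5d, which is 50% of the 8 of E9.5 and 44.4% of the 9 of E10.5. Another 5, Dcc, Epha5, Ntn1, Sema3d and Slit1, were lower in AoV at both stages, 55.6% of 9 and 50% of 10. These 2 comparisons share no library. Over all tested genes, 33.4% of the higher calls of E9.5 and 47.8% of those of E10.5 were shared, and 53.5% and 43.2% of the lower calls. After quantile normalization the shared higher members were 2, Robo2 and Unc5c, of 3 at E9.5 and 8 at E10.5, and the shared lower members 7, with Robo3 and Unc5a added, of 9 and 12. Of the 64 members, 0 were called in opposite directions at the 2 stages by limma, and 5 (Efna1, Efna2, Sema3f, Sema4f and Slit3) had opposite signs with an unadjusted p below 0.05 at both. The count by this looser rule was not made over all tested genes. Over all 18553 tested genes, 70 were called higher in AoV at E9.5 and lower at E10.5, and 20 the reverse. Opposite calls were thus rare in general, and their absence is not particular to the members.

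Class 3 semaphorins, the secreted semaphorins, included members with a strong dependence on stage. Sema3e was at 7.28, 6.74 and 8.64 RPM in E9 AoD and at 6.95, 7 and 9.15 RPM in E9 AoV. Sema3e at E10.5 was at 2.13, 2.76 and 1.87 in E10 AoD, 1.56, 1.56 and 1.35 in E10 AoV, and 2.31, 2.16 and 1.77 in E10 UGR. Sema3e, which repels endothelial cells through Plxnd1, fell on both sides, with every E9.5 library at 6.74 RPM or more and every E10.5 library at 2.76 RPM or less. Its log2 change was -2.29 (SE 0.16, adjusted p = 2.96e-08) in AoV and -1.71 (SE 0.16, adjusted p = 3.6e-07) in AoD, and it was the only member called lower with stage on both sides. Plxnd1, its receptor, was not called and ranged from 137 to 284 RPM. Sema3g was at 15.2, 18.8 and 12.2 RPM in E9 AoD and at 16, 20.3 and 17.9 RPM in E9 AoV. Sema3g at E10.5 was at 52.5, 44.6 and 54.1 in E10 AoD, 33.6, 37.9 and 37 in E10 AoV, and 7.64, 7.61 and 6.87 in E10 UGR. Sema3g, a semaphorin of arterial endothelium, rose with stage on both sides (log2 difference 1.72, SE 0.13, adjusted p = 5.02e-08 in AoD and log2 difference 1.002, SE 0.13, adjusted p = 1.76e-05 in AoV) and was lowest in E10 UGR, below AoV by 2.28 and below AoD by 2.75. The rise in AoV sat on the threshold and was not called without E9 AoV replicate 1 (0.92) or 3 (0.999, under the threshold) or without E10 AoV replicate 2 (0.97) or 3 (0.98). The median log2 difference of the 7 endothelial markers was 1.09 between the dorsal stages (4 of 7 called higher), 0.14 between the ventral stages, and 0.60 in AoV and 0.54 in AoD against E10 UGR, and their part in the Sema3g values was not tested.

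Sema3d, Sema3b and Sema3c differed by side. Sema3d was at 17.5, 26.8 and 21.7 RPM in E9 AoD and at 9.12, 10.6 and 9.67 RPM in E9 AoV. Sema3d at E10.5 was at 27.7, 32.9 and 30.5 in E10 AoD, 12.9, 13.3 and 11.2 in E10 AoV, and 22.6, 23.3 and 17.9 in E10 UGR. Sema3d was higher in AoD, and AoV against AoD was at -1.14 at E9.5 and -1.28 at E10.5 on the log2 scale. The E9.5 call did not hold without E9 AoD replicate 2 (-0.99). Sema3b, between 4.3 and 13.9 RPM, was higher in AoV at E9.5 (1.07) and E10.5 (1.002) and lower in E10 AoD than in E10 UGR (-1.03). All 3 Sema3b calls sat at the threshold. They were lost without E9 AoD replicate 3 at E9.5 (0.94), without E10 AoD replicate 1 (0.93), E10 AoV replicate 2 (0.95) or E10 AoV replicate 3 (0.99) at E10.5, and without E10 AoD replicate 1 (-0.96) or E10 UGR replicate 1 (-0.997) against E10 UGR. Sema3c, which guides neural crest and cardiac outflow cells, was higher in E10 AoV (1.23) and in E10 UGR (-1.49 for AoD against UGR) than in E10 AoD, with means of 92.0 ± 5.89, 110 ± 2.31 and 39.3 ± 4.37 RPM (SD, n = 3). Sema3a and Sema3f were not called.

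Among the 13 membrane-bound or otherwise classed semaphorins, Sema7a and Sema5a rose with stage on both sides. Sema7a was at 4.2, 5.19 and 3.74 RPM in E9 AoD and at 4.95, 4.92 and 4.56 RPM in E9 AoV. Sema7a at E10.5 was at 17.4, 17.4 and 16.7 in E10 AoD, 10.3 ± 0.208 (mean ± SD, n = 3) in E10 AoV, and 5.01, 4.38 and 4.42 in E10 UGR. Sema7a, a semaphorin held by a lipid anchor that acts through integrins, rose on the log2 scale by 1.96 (SE 0.10, adjusted p = 1.53e-09) in AoD and 1.08 (SE 0.10, adjusted p = 6.44e-07) in AoV, and exceeded E10 UGR by 1.88 (AoD) and 1.14 (AoV). Sema5a was at 61.5, 80.1 and 74.3 RPM in E9 AoD and at 49.4, 68.6 and 53.1 RPM in E9 AoV. Sema5a at E10.5 was at 219, 313 and 218 in E10 AoD, 125, 127 and 105 in E10 AoV, and 85.9, 94.6 and 78.1 in E10 UGR. Sema5a, a transmembrane semaphorin with thrombospondin repeats, had its 3 highest libraries in E10 AoD, at 218 RPM or more. It rose by 1.78 in AoD and 1.07 in AoV, was lower in E10 AoV than in E10 AoD (-1.05), and was higher in E10 AoD than in E10 UGR (1.52). The ventral rise was not called without E9 AoV replicate 1 (0.97), nor the E10.5 side difference without E10 AoD replicate 2 (-0.88) or E10 AoV replicate 3 (-0.97).

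Sema5b, the paralog of Sema5a, did not follow it. Sema5b was at 24.3, 19.4 and 30.4 RPM in E9 AoD and at 9.44, 11.1 and 8.44 RPM in E9 AoV. Sema5b at E10.5 was at 9.84, 7.88 and 8.88 in E10 AoD, 8.79, 9.77 and 9.08 in E10 AoV, and 23.3, 21.1 and 21.7 in E10 UGR. Sema5b was high in E9 AoD and in E10 UGR and low in the 3 other groups, with no overlap. It fell with stage in AoD (-1.45), was lower in E9 AoV than in E9 AoD (-1.33), and was lower than E10 UGR in E10 AoV (-1.25) and E10 AoD (-1.31). Sema6b was at 4.55, 4.76 and 3.4 RPM in E9 AoD and at 5.49, 3.8 and 3.95 RPM in E9 AoV. Sema6b at E10.5 was at 10.8, 11.3 and 11.4 in E10 AoD, 5.34, 5.06 and 4.45 in E10 AoV, and 7.2, 5.53 and 8.11 in E10 UGR. Sema6b was highest in E10 AoD, where it rose from E9 AoD (1.39) and exceeded E10 AoV (-1.16 for AoV against AoD). Sema4a, between 1.97 and 7.24 RPM, was higher in E9 AoV than in E9 AoD (1.15) and lower than in E10 UGR in E10 AoV (-1.02) and E10 AoD (-1.41). The E10 AoV call was lost without E10 AoV replicate 1 (-0.99) or 3 (-0.94). Sema4b, Sema4c, Sema4d, Sema4f, Sema4g, Sema6a, Sema6c and Sema6d were called in no comparison, and of these Sema4c, at 88.5 to 110 RPM, varied least, with a ratio of 1.14 between its highest and lowest group means.

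Plexins, the semaphorin receptors, included the highest members per transcript length, Plxnb2 and Plxnd1 (38.5 and 30.5 RPM per kb of exon over all libraries), but only Plxna4 and Plxnb3 of the 9 were called. Plxna4 was at 8.28, 8.44 and 7.4 RPM in E9 AoD and at 20.3, 24.1 and 24.3 RPM in E9 AoV. Plxna4 at E10.5 was at 21.2, 33.8 and 23.1 in E10 AoD, 23, 28.1 and 20.3 in E10 AoV, and 11.6, 13.1 and 9.97 in E10 UGR. Plxna4, a receptor on sensory and sympathetic axons, was lowest in E9 AoD, with E10 UGR next, and the other groups overlapped each other. It was higher in E9 AoV (log2 difference 1.496, SE 0.16, adjusted p = 2.29e-06) and in E10 AoD (log2 difference 1.65, SE 0.16, adjusted p = 5.87e-07) than in E9 AoD, and higher in E10 AoV (1.03) and E10 AoD (1.14) than in E10 UGR. Of these last calls, the first was lost without E10 AoV replicate 2 (0.91) or E10 UGR replicate 3 (0.93) and the second without E10 AoD replicate 2 (0.94). Plxnb3 was at 0.172, 0.188 and 0.0214 RPM in E9 AoD and at 0.251, 0.0232 and 0.166 RPM in E9 AoV. Plxnb3 at E10.5 was at 0.999, 0.627 and 0.805 in E10 AoD, 0.233, 0.102 and 0.186 in E10 AoV, and 0.148, 0.206 and 0.282 in E10 UGR. Plxnb3 was at 0.627 RPM or more in the 3 E10 AoD libraries and at or below 0.282 RPM in the other 12, with E9 AoD replicate 3 and E9 AoV replicate 2 at about 1 read each. E10 AoD was higher than E9 AoD by 2.08, higher than E10 UGR by 1.55, and E10 AoV against E10 AoD was at -1.74, on the scale with 0.1 RPM added. With 1 RPM added the same differences were 0.68, 0.58 and -0.62. Plxna1, Plxna2, Plxna3, Plxnb1, Plxnb2, Plxnc1 and Plxnd1 were called in no comparison.

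**Figure D4:**
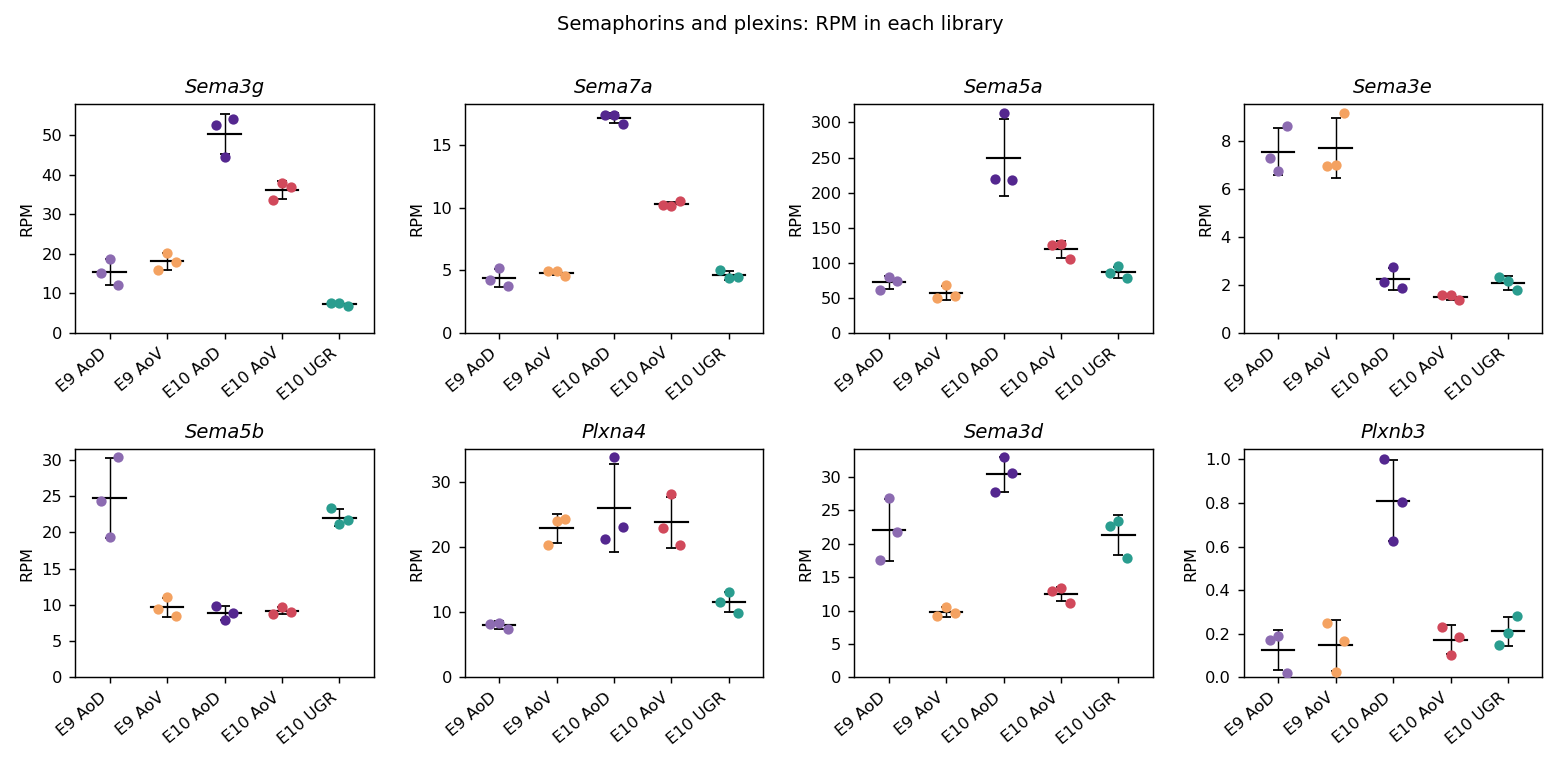
RPM of 6 semaphorins and 2 plexins in each library (points) of the 5 groups, with group means (lines) and SD (bars, n = 3), on linear axes from 0. Sema3g, Sema7a and Sema5a are highest in E10 AoD, Sema3e lies at 2.76 RPM or less in all E10.5 libraries, and Sema5b is high only in E9 AoD and E10 UGR.

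Sema3g, Sema7a and Ntn4 were called higher in the same 4 comparisons, the 2 between stages and the 2 against E10 UGR, and their upstream windows are shown for that reason, as 250 bases before the RefSeq start (GRCm38.p6), with GC boxes and the E-box CAGCTG in capitals. Sema3g is at chr14:31217623-31217872, Sema7a at chr9:57939862-57940111 and Ntn4 at chr10:93640799-93641048, all on the plus strand.
Sema3g: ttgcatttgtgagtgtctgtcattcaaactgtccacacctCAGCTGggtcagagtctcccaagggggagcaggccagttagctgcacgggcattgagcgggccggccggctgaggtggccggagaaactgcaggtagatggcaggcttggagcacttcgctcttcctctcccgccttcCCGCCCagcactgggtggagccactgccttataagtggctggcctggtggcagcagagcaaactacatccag
Sema7a: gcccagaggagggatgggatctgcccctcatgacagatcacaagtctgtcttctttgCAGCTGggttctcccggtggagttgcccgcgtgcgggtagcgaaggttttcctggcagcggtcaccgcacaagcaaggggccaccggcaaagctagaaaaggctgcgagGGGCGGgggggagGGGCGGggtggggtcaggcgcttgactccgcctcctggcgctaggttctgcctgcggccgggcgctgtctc
Ntn4: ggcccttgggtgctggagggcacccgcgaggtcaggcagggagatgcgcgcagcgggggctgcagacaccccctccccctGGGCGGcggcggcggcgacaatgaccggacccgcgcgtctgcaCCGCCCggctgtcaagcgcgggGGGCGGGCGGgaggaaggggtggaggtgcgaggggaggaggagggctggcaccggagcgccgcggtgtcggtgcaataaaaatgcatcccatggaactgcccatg
The Sema3g and Sema7a windows hold 1 E-box each and the Ntn4 window none. GC boxes number 1 in Sema3g, 2 in Sema7a and 4 in Ntn4, where 2 of them overlap.

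A-type Eph receptors had the most calls of the 11 roles, 23 of 63 pairs of member and comparison, although the 4 netrin receptors had more for their number, 16 of 28. This rank depends on the pseudocount. With 1 RPM added in place of 0.1 RPM, all calls of Epha6, Epha8 and Epha10 and some of Epha1 and Epha5 were lost. Of all 18553 tested genes, between 1404 and 2337 were called per comparison, and pairs from comparisons that share a group are not independent. Between the sides, 6 of the 9 A-type Eph receptors were called at E10.5 and 1 of 9 at E9.5, against 1874 and 2187 of all tested genes. With 1 RPM added, only Epha4 and Epha7 of these kept their call at E10.5, and Epha5 lost its call at E9.5. Without the 2-fold threshold, 9 of 9 had an adjusted p below 0.05 at E10.5 and 6 of 9 at E9.5, and the difference between the stages was not tested for the list. Epha7 was at 39.5, 51.6 and 49.1 RPM in E9 AoD and at 47.3, 59.9 and 52.5 RPM in E9 AoV. Epha7 at E10.5 was at 45.1, 48.4 and 41.8 in E10 AoD, 166, 174 and 166 in E10 AoV, and 86.4, 80.7 and 81.4 in E10 UGR. Epha7, a receptor for A-type ephrins on chr4:28740281-28894649 (NCBIM37), was 3.17-fold higher in E10 AoV than in E9 AoV (log2 difference 1.67, SE 0.095, adjusted p = 5.03e-09) and 3.74-fold higher than in E10 AoD (log2 difference 1.90, SE 0.095, adjusted p = 1.32e-09), with every E10 AoV library at 166 RPM or more and no other library above 86.4 RPM. It also exceeded E10 UGR (1.03). Coelomic epithelium and gonad markers had a like order of groups at E10.5, with 5 of 5 called above E10 AoD in E10 AoV and 4 of 5 above E9 AoV, and their part in the Epha7 values was not tested. Their sum was 578 to 648 RPM in E10 UGR and 697 to 742 RPM in E10 AoV. Epha6 was at 0.0492, 0.107 and 0 RPM in E9 AoD and at 0.0912, 0.162 and 0.0475 RPM in E9 AoV. Epha6 at E10.5 was at 0.154, 0.176 and 0.284 in E10 AoD, 0.882, 1.51 and 0.978 in E10 AoV, and 1.27, 1.32 and 0.957 in E10 UGR. Epha6 was at or below 0.162 RPM at E9.5, around the level of 3 reads (0.0617 to 0.0889 RPM), and reached 0.882 to 1.51 RPM in E10 AoV and 0.957 to 1.32 RPM in E10 UGR. On the scale with 0.1 RPM added it was higher with stage in AoV (2.62) and AoD (1.04), higher in E10 AoV than in E10 AoD (1.99), and lower in E10 AoD than in E10 UGR (-2.09). With 1 RPM added these values were 0.94, 0.20, 0.81 and -0.85. The rise in AoD was not called without E9 AoD replicate 3 (0.77) or E10 AoD replicate 3 (0.86). Epha4, which binds ephrins of both types, was higher in E10 AoV than in E10 AoD (1.26), with 79.2 to 104 RPM against 36.4 to 40.8 RPM.

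Epha5, Epha8 and Epha10, which are receptors of the nervous system, had the reverse polarity at E10.5 and were all low. Epha5 was at 1.72, 2.18 and 2.61 RPM in E9 AoD and at 0.615, 0.696 and 0.642 RPM in E9 AoV. Epha5 at E10.5 was at 2.36, 3.24 and 1.7 in E10 AoD, 0.752, 1.05 and 0.442 in E10 AoV, and 0.474, 0.411 and 0.366 in E10 UGR. AoV was lower than AoD, at -1.58 at E9.5 and -1.60 at E10.5 on the log2 scale, and E10 AoD was higher than E10 UGR by 2.25. Epha8 was at 1.75, 0.672 and 1.97 RPM in E9 AoD and at 1.48, 0.974 and 1.26 RPM in E9 AoV. Epha8 at E10.5 was at 1.64, 2.06 and 1.35 in E10 AoD, 0.545, 0.665 and 0.396 in E10 AoV, and 0.77, 0.74 and 0.451 in E10 UGR. Epha8 was lower in E10 AoV than in E9 AoV (-1.08) and E10 AoD (-1.49) and higher in E10 AoD than in E10 UGR (1.25). The fall in AoV was lost without E9 AoV replicate 1 (-0.95) or E10 AoV replicate 3 (-0.91). Epha10 was highest in E10 AoD, at 1.54 to 2.1 RPM, and E10 AoV against E10 AoD was at -1.19, while E10 AoD exceeded E10 UGR by 1.85. With 1 RPM added, the side differences of Epha5 were -0.93 and -0.96, those of Epha8 and Epha10 at E10.5 were -0.80 and -0.68, and none of these was called. The summed RPM of the 7 neuron markers was likewise highest in E10 AoD, as were the floor plate and notochord, neural crest and sympathoadrenal, and sclerotome sums. Of the neuron markers, 6 were called lower and 1 higher in E10 AoV than in E10 AoD, and 7 of 7 were higher in E10 AoD than in E10 UGR. At E9.5, 6 neuron markers were also called lower and 1 higher in AoV, where Epha5 was called lower but Epha8 and Epha10 were not called. The part of any of these cell types in these values was not tested.

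Epha3 and Epha1 were higher in E10 UGR than in E10 AoD. Epha3, which binds A-type ephrins, was at 31 to 55.1 RPM there, against E10 AoV at -1.73 and E10 AoD at -1.07 on the log2 scale. The second call was lost without E10 AoD replicate 1 (-0.99), E10 AoD replicate 3 (-0.98) or E10 UGR replicate 2 (-0.86). Epha1, an epithelial receptor, was lower in E10 AoD than in E10 UGR (-1.26) and fell with stage in AoV (-1.03), which was lost without E9 AoV replicate 1 (-0.99) or E10 AoV replicate 2 (-0.95). Epha2 was not called.

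B-type Eph receptors, Ephb1, Ephb2, Ephb3 and Ephb6, had 0 calls by limma in their 28 pairs of member and comparison. Between 1404 and 2337 of all 18553 tested genes were called per comparison. In 20 of these pairs the unadjusted p was below 0.05 and in 18 the adjusted p was, with no log2 difference above 0.95 in size. Ephb2, the highest of them in RPM, ranged from 49.9 to 102 RPM.

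Of the ephrins, Efna1, Efna3 and Efnb1 were called. Efna1 was at 15.9, 17.2 and 10.7 RPM in E9 AoD and at 29.8, 31.5 and 29.3 RPM in E9 AoV. Efna1 at E10.5 was at 35.1, 31.2 and 38.4 in E10 AoD, 25.2, 26.8 and 25.7 in E10 AoV, and 14.1, 15.6 and 14.4 in E10 UGR. Efna1, an A-type ephrin that is also known in endothelium, was lowest in E9 AoD and E10 UGR. It rose with stage in AoD (1.28), was higher in E9 AoV than in E9 AoD (1.07) and also exceeded, in E10 AoD, its level in E10 UGR (1.24). The E9.5 difference was not called without E9 AoD replicate 3 (0.86). Efna3 was at 5.26, 6.17 and 5.08 RPM in E9 AoD and at 7.08, 7.63 and 7.01 RPM in E9 AoV. Efna3 at E10.5 was at 8.93, 8.9 and 6.49 in E10 AoD, 17.4, 19.5 and 17.6 in E10 AoV, and 10.2, 9.2 and 9.53 in E10 UGR. Efna3 was highest in E10 AoV, higher than in E9 AoV (1.31) and E10 AoD (1.17), but 14.1% of its exon length overlaps another gene on the opposite strand. Efnb1, a transmembrane ephrin, was lower in E10 AoD than in E10 UGR (-1.39), at 55.4 to 67.9 against 159 to 167 RPM, with E10 AoV at 107 to 116 RPM (0.85 above E10 AoD, adjusted p = 1.22e-07, short of 2-fold). Efna2, Efna4, Efna5 and Efnb3 were not called.

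**Figure D5:**
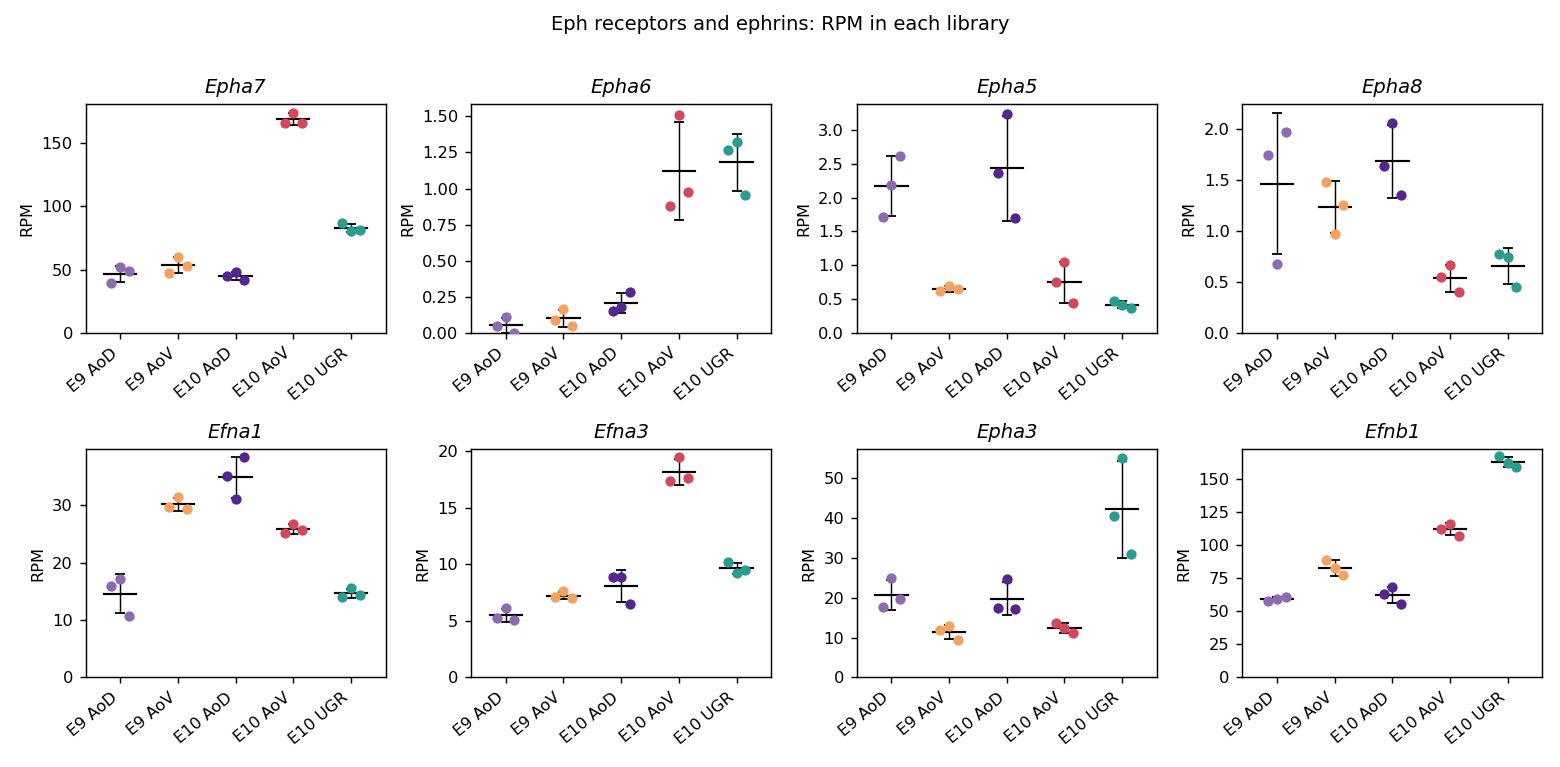
RPM of 5 A-type Eph receptors, 2 A-type ephrins and Efnb1 in each library (points) of the 5 groups, with group means (lines) and SD (bars, n = 3), on linear axes from 0. Epha7 stands at 166 to 174 RPM in E10 AoV, Epha3 and Efnb1 are highest in E10 UGR, and Epha5 is highest in the dorsal groups.

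Within the E10.5 tissues, Ntn4, Plxna4, Sema3g and Sema7a were lower in UGR than in both parts of the aorta, and Epha3, Sema4a and Sema5b were higher in UGR than in both. Epha10, Epha5, Epha8, Ntn1, Plxnb3 and Sema5a were higher in AoD than in both other tissues, and Epha6, Sema3b, Sema3c, Unc5c and Unc5d were lower. These counts rest on pairs of comparisons that share a group.

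The change with stage differed between the sides for 13 members by the interaction test. It was more positive ventrally for Ntn5 (2.51), Dcc (2.22), Epha7 (1.71), Slit1 (1.64), Epha6 (1.58), Sema5b (1.39) and Unc5a (1.15), and more negative ventrally for Plxnb3 (-1.84), Plxna4 (-1.61), Efna1 (-1.496), Epha8 (-1.37), Sema6b (-1.21) and Ntn3 (-1.12). Epha7 rose in the ventral aorta, with dorsal libraries at 39.5 to 51.6 RPM at E9.5 and 41.8 to 48.4 RPM at E10.5. For Dcc and Slit1 the sides lay closer together at E10.5 than at E9.5. Unc5d had an interaction of 1.17 with an adjusted p of 0.0540, which was called without E9 AoD replicate 1 (1.37) or E10 AoD replicate 2 (1.52). The Epha8 interaction was not called without any 1 of 7 libraries (E9 AoD replicate 2, E9 AoV replicates 1 and 3, E10 AoD replicates 1 and 2, and E10 AoV replicates 1 and 3), with values from -1.40 to -0.93. That of Plxnb3 was not called without E9 AoD replicate 3, E9 AoV replicate 1 or 3, E10 AoD replicate 1 or E10 AoV replicate 2, with values from -1.72 to -1.43, and that of Ntn3 without E9 AoD replicate 3 (-0.99). With 1 RPM added, the interactions of Ntn5 (0.93), Epha6 (0.74), Epha8 (-0.70) and Plxnb3 (-0.64) were not called. The Epha8 interaction was also lost after quantile normalization and with no filter on low values.

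Co-receptors and effectors of the same pathways were read from 4 further lists. Of all tested genes, 8.32% were called higher and 3.47% lower in AoV than in AoD at E9.5, and 5.81% and 4.29% at E10.5. Between 1404 and 2337 of the 18553 were called per comparison. Of 15 semaphorin co-receptors and effectors, 2 were higher and 2 lower in E9 AoV than in E9 AoD, and 1 was higher and 3 were lower in E10 AoV than in E10 AoD. Nrp2, a neuropilin, was at 111, 119 and 98.4 RPM in E10 AoV against 291, 386 and 329 RPM in E9 AoV (log2 fold change -1.61) and 224, 275 and 214 RPM in E10 AoD (-1.11). Dpysl5, a cytosolic effector of growing axons, was lower in AoV at E9.5 (-1.46) and E10.5 (-1.66) and fell with stage on both sides (-1.68 in AoV and -1.48 in AoD). Mical2, an actin oxidase, was higher in AoV by 2.42 and 2.30. L1cam, an adhesion molecule of axons, was lower in E10 AoV than in E10 AoD (-2.09). The 9 Slit-Robo effectors found of 10 listed had 3 calls in 63 pairs, all of them Srgap3, which was lower in E9 AoV than in E9 AoD (-2.25). Of 12 netrin co-receptors, further ligands and effectors, 10 were tested, with 1 higher and 3 lower in AoV than in AoD at E9.5 and 2 higher and 2 lower at E10.5. Dscam, another netrin receptor, was at 11.8, 13.4 and 13.3 RPM in E10 AoV and at 3.34 RPM or less in every other library. It was higher in E10 AoV than in E9 AoV (2.32), E10 AoD (3.81) and E10 UGR (5.29). Rgma and Rgmb, ligands of the netrin receptor relative neogenin, were lower in AoV at E9.5 (-1.55 and -1.42) and E10.5 (-1.11 and -1.67). Of 7 Eph-ephrin effectors, Ngef was the only one called, with E10 AoV above E10 AoD (1.37) and with lower levels in E9 AoV than in E9 AoD (-1.04). With 1 RPM added these differences were 0.56 and -0.57. The E9.5 call was lost without E9 AoD replicate 1 (-0.95), E9 AoD replicate 3 (-0.88) or E9 AoV replicate 3 (-0.90).

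Dpysl3 was called higher in both aorta groups than in E10 UGR (1.16 in AoV and 1.94 in AoD), Trim9 lower in E9 AoV than in E9 AoD (-2.98), and Flrt3 higher in E10 AoV than in E10 AoD (1.66). Nrp1, the neuropilin of endothelium and axons, was higher in E9 AoV than in E9 AoD by 1.02, which was lost without E9 AoD replicate 1 (0.93) or 3 (0.95), without E9 AoV replicate 2 (0.93) and after median-of-ratios scaling (0.99).

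The 28 members called in no comparison include 7 of the 9 plexins, 8 of the 13 other semaphorins and 4 of the 4 B-type Eph receptors, and no netrin, netrin receptor or Slit. Many were well detected. Plxnb2 (230 to 315 RPM), Plxnd1 (137 to 284 RPM), Plxnb1 (121 to 195 RPM) and Robo1 (75.8 to 174 RPM) are among them, and Sema4f, the lowest, lay between 0.983 and 3.23 RPM. The lowest members of all per kb of exon were Robo3, Plxnb3 and Epha6, at 0.0339, 0.0453 and 0.101 RPM per kb over all libraries. With 1 RPM in place of 0.1 RPM added before the logarithm, 39 of the 110 calls were lost, both of low members and of members whose difference was close to 2-fold, such as Sema3g and Plxna4 (now 0.97 and 0.98). The members concerned are Dcc, Epha1, Epha5, Epha6, Epha8, Epha10, Ntn4, Ntn5, Plxna4, Plxnb3, Robo3, Sema3b, Sema3g, Sema4a, Sema7a, Unc5a and Unc5d.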

How the data were processed

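RNA from pooled dissected tissue was sequenced by the authors as TruSeq libraries, single-end, aligned to the mouse genome (NCBIM37, also called mm9) with TopHat and Bowtie 0.12.3, and summarised per Ensembl gene in GeneProf, where reads that map to several genes are divided among them. The authors deposited 1 table of RPM values (reads per gene, scaled by the authors to a common total), rounded to 3 significant digits, with 12 further columns of log2 fold changes and adjusted p values from their DESeq comparisons, which were not used. Whether counting used strand is not given in the sources used here. Of the values below 1 RPM and up to 20 reads, between 56.0% and 58.6% per library were whole multiples of the RPM of 1 read, within rounding to 3 digits plus 0.002 reads, so read counts were not recovered and no count model was run.

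The 18553 of 28876 genes that reached 0.5 RPM in any library were tested with limma 3.58.1 (R 4.3.3) on log2(RPM + 0.1), with 5 group means over 15 libraries, empirical Bayes with an intensity trend, and Benjamini-Hochberg adjustment over all tested genes, tested on simulated data. Calls needed an adjusted p below 0.05 and a difference of 2-fold. Fold changes on this scale understate those of low genes. Library depth was 33.7 M to 48.6 M reads, and 3 reads correspond to 0.0617 to 0.0889 RPM.

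Members, effector lists and marker lists were chosen with earlier results of these data known. All called members were named, and RPM per library was given for the called member with the largest difference of each role within the aorta and for members called in 4 or more comparisons. Deviations from the group means of same-numbered E9 AoD and E9 AoV libraries correlated at 0.452, 0.347 and 0.190. The labels do not say that same-numbered libraries belong together, so a pairing of the sides at E9.5 is a hint from the data. Gene positions are from GENCODE for NCBIM37 and upstream windows from RefSeq (GRCm38.p6). Alternatives were another pseudocount, low-value filters, scalings, sample weights, a replicate block, the compared groups alone and leaving out each library. The replicate block restricted to the E9.5 libraries was chosen after seeing the data.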

Additional observations from a re-analysis of the deposited data

Results flagged for a closer look

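A difference between the sides in the change with stage, tested by the interaction term in limma, marked 13 members. On the log2 scale the change in AoV exceeded that in AoD by 2.51 for Ntn5, 2.22 for Dcc, 1.71 for Epha7, 1.64 for Slit1, 1.58 for Epha6, 1.39 for Sema5b and 1.15 for Unc5a. It was below that in AoD for Plxnb3 (-1.84), Plxna4 (-1.61), Efna1 (-1.496), Epha8 (-1.37), Sema6b (-1.21) and Ntn3 (-1.12). Those of Ntn5, Epha6, Epha8 and Plxnb3 were not called with 1 RPM added (0.93, 0.74, -0.70 and -0.64), and those of Epha8, Plxnb3 and Ntn3 were lost without single libraries.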

How the results depend on the processing

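No call of a member changed direction under any alternative run (0 of 1735 values), and 48 of the 110 calls were lost under at least 1 of them. With 1 RPM added before the logarithm 39 calls were lost, leaving 5 called members in E10 AoV against E9 AoV, 11 between the E9.5 sides and 12 between the E10.5 sides, and leaving out single libraries ended 25. Quantile normalization ended 11, sample quality weights 10, median-of-ratios scaling 3 and no filter on low values 1. The fit on the compared groups alone ended 0 of the 109 calls it could give. The stricter filter, 1 RPM in at least 3 libraries, ended 0 of 102. It could not give the calls of Ntn5, Plxnb3 and Robo3, which failed it, so those drop out with this filter. Without the 2-fold threshold 35, 43, 41, 48, 37, 43 and 34 members passed, in the order E10 AoV against E9 AoV, E10 AoD against E9 AoD, the E9.5 sides, the E10.5 sides, E10 AoV and E10 AoD against E10 UGR, and the interaction. The replicate block ended 0 of 110 calls, and on the E9.5 libraries alone 0 of 17, and gave 14 members with an interaction against 13 without it, the added one being Unc5d (1.17, adjusted p = 0.0383). In no other pair of groups did all 3 same-numbered correlations exceed 0.1. E10 AoV and E10 UGR came closest (0.0889, 0.168 and 0.131), and there each E10 AoV library correlated best with the E10 UGR library of its own number, a hint from the data and not from the labels, while for E10 AoD and E10 AoV the values were 0.0416, 0.205 and 0.172. Depth limits Robo3, Plxnb3, Epha6 and Ntn5, which lay near the level of 3 reads in several libraries.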
